A study of Mus musculus with 12 samples.

Results

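The genes described here are 34 mouse genes of glycolysis and the pentose phosphate pathway: carriers of glucose and lactate, the enzymes of both pathways, and the enzymes at which pyruvate enters the mitochondrion. They were taken by gene symbol from a deposited table of 14541 genes. The table held a row for 33 of them, and Eno1, the gene of the most widely expressed enolase, was not analysed here. Aldoc, a brain form of aldolase, did not reach 1 FPKM in 4 libraries, so 32 of these genes were among the 11242 genes tested. FPKM relates a gene's reads to its length and to library size, so levels of different genes can be set side by side.

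The study asked how wild-type mouse microglia, the resident macrophages of the brain, respond over 6 h to Hevin, to lipopolysaccharide (LPS) or to Media. Cells from forebrains of pups 7 to 9 days old were captured on magnetic beads against CD11b, a surface protein that microglia share with other macrophages, monocytes and neutrophils, and plated at 40000 to 80000 per well. The Hevin group received 500 nM of recombinant Hevin, the secreted astrocyte protein made from Sparcl1. The LPS group received 50 ng/mL of LPS, a bacterial cell wall component that signals through Toll-like receptor 4, and the Media group received more growth medium. All groups therefore shared perfusion, papain digestion, bead capture and culture, and none holds cells that were never cultured. Each group held 4 libraries of poly(A) RNA, numbered 1 to 4. Whether these stem from different animals or cultures is not said in the labels, and the p-values therefore reflect nothing beyond the scatter among these libraries.

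Glycolysis splits glucose into pyruvate in the cytosol and yields ATP and NADH, and its pace is set mainly at hexokinase, phosphofructokinase and pyruvate kinase. The pentose phosphate pathway branches off at glucose 6-phosphate: its oxidative branch makes NADPH, which feeds antioxidant defence, lipid synthesis and the NADPH oxidase of phagocytes, and its non-oxidative branch exchanges sugars with glycolysis and makes ribose for nucleotides. Macrophages and microglia exposed to LPS are known for a shift towards glycolysis, in which the transcription factor HIF-1α takes part.

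Libraries held 18343996 to 27361665 reads in the listed genes, recovered from the steps of the FPKM values. The deposited column names place the libraries in groups 4 to 7, which match numbers 1 to 4 and hold 1 library of each treatment. Libraries with the same number also deviated together from their group means, so the numbers were taken to pair the libraries. The labels do not say what the numbers stand for. The main fit leaves the number out. For the tested pathway genes a fit with this number as a blocking term is given wherever it alters a call. For the other lists it is given as counts or shares, for Hevin by list and for LPS over all lists. All 12 microglia markers were detected and tested. They summed to 903 to 1172 FPKM in Media, 1495 to 2101 FPKM in Hevin, where 6 of the 12 were higher by the test, and 823 to 1143 FPKM in LPS, where 1 was higher and 2 lower. All 3 libraries numbered 2 also carried neutrophil and monocyte transcripts: 8 marker genes summed to 1916 to 2081 FPKM in them and to 40.0 to 106 FPKM in the other 9. A list of 7 endothelial and pericyte markers summed to 28.2 to 78.0 FPKM in numbers 1 and 2 and to 98.1 to 168 FPKM in numbers 3 and 4. Neuron markers (8 genes) also differed by number, with sums of 2.72 to 8.71 FPKM in numbers 1 and 2 and 7.40 to 23.2 FPKM in numbers 3 and 4. The astrocyte list summed to 53.0 to 92.4 FPKM in Media, 23.7 to 52.7 FPKM in Hevin and 116 to 240 FPKM in LPS. Of its 9 genes, 1 was lower in Hevin and 1 higher in LPS by the test, and in both cases this was Gja1, the list's highest gene, while Gfap and Aqp4 stayed under 2 FPKM in every library. The oligodendrocyte lineage list summed to 11.5 to 16.1 FPKM in Media, 23.1 to 37.9 FPKM in Hevin and 8.21 to 11 FPKM in LPS. Mbp was its highest gene in Media and LPS and Cspg4 in Hevin, and without Cspg4 the other 6 genes summed to 9.44 to 12.7, 9.34 to 11.3 and 6.91 to 9.82 FPKM. The 7 border macrophage markers summed to 831 to 968 FPKM in Media, 631 to 841 FPKM in Hevin and 714 to 881 FPKM in LPS, and 2 of the 7 were higher and 1 lower in Hevin by the test, and 1 higher in LPS. The part of these cell types in the results below was not tested. In such bulk libraries, fewer cells of a type and less RNA per cell cannot be told apart.

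In Media the pathway was led by Pgd, the gene of 6-phosphogluconate dehydrogenase in the oxidative branch, at 759 ± 43.5 FPKM (mean ± SD, 4 libraries, as below). Next came Pkm (pyruvate kinase) at 443 ± 64.2 FPKM, Aldoa (the main aldolase) at 347 ± 36.8 FPKM and Taldo1 (transaldolase) at 250 ± 36.0 FPKM. Pkm and Aldoa overlapped between Media libraries, whereas the lowest Pgd library (716 FPKM) lay above the highest Pkm library (501 FPKM) and the lowest Aldoa library (313 FPKM) above the highest Taldo1 library (293 FPKM). Slc2a1 (the glucose carrier GLUT1) followed at 158 ± 18.9 FPKM, Tkt (transketolase) at 119 ± 13.2 FPKM and Hk3 (hexokinase 3) at 93.2 ± 9.12 FPKM. At the low end stood Pdk1 at 1.58 ± 0.204 FPKM, Pfkm at 0.873 ± 0.401 FPKM and Aldoc at 0.539 ± 0.360 FPKM. Gapdh, at 53.7 ± 6.41 FPKM, ranked 10 of 33, but its level is uncertain because 82 annotated pseudogenes share at least 1 stretch of 100 bases with it. Pgk1 and Pgam1 also share 51.7% and 33.9% of their 100-base stretches with pseudogenes, which the authors' counting could have split.

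Upstream sequence is shown for the 3 genes with the largest changes among the 32 tested: H6pd, Pfkfb3 and Hk2. Each window is the 250 bases before a RefSeq start site on GRCm38.p6, read 5′ to 3′ on the gene's strand, which is the minus strand for all 3. Capitals mark the core of the hypoxia response element, ACGTG or GCGTG on either strand, to which HIF factors bind.

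H6pd, chr4:150003237-150003486: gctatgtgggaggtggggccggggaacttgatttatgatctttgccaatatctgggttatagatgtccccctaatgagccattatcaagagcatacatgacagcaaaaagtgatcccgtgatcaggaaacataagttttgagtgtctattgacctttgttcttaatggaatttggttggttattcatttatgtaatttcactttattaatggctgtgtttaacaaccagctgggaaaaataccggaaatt
Pfkfb3, chr2:11502091-11502340: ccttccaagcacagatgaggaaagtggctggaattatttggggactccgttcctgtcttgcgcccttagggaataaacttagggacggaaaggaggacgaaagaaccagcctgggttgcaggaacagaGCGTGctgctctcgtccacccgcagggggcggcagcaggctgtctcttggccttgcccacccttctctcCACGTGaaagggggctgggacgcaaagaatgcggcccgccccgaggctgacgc
Hk2, chr6:82774455-82774704: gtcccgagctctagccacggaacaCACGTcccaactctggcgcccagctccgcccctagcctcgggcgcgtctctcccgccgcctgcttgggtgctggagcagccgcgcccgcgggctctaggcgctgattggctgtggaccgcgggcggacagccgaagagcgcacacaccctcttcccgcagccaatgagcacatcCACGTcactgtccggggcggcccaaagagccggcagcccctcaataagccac

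The H6pd window lies inside the longer GENCODE M21 gene model, outside its exons, and holds 0 cores. The Pfkfb3 window also lies inside its gene model, with 11 bases in exons, and holds 3 matches, of which CACGTG gives 1 on each strand. A further RefSeq start of Pfkfb3, at the 5′ end of the gene model, is not shown. Its window has 148 bases in exons and holds 1 core. The Hk2 window, which abuts the annotated gene, holds 2. Such a core is common: it occurs in 38.6% of 32851 RefSeq windows of this length, and in 39 of 49 windows of these pathway genes (79.6%), with no matching for base composition. The κB consensus, the binding motif of NF-κB, occurs in 3.90% of all windows and in 0 of the 49. CAGAC, a SMAD element, occurs in 42.2% of all windows and in 15 of the 49 (30.6%), and TGACNNNGC, the antioxidant response element, in 10.2% of all windows and in 4 of the 49 (8.16%). These matches describe letters in a window and say nothing of binding in these cells.

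Hevin left most of the pathway within the spread between libraries and raised 2 genes. H6pd, whose product runs the first steps of the oxidative pentose phosphate branch inside the endoplasmic reticulum, rose 4.96-fold, and Pfkfb3, whose product makes the phosphofructokinase activator fructose 2,6-bisphosphate, rose 2.31-fold. Pgk1, the gene of phosphoglycerate kinase, fell to 0.669 of its Media level. These 3 genes are 9.38% of the 32 tested, against 7.37% of all genes tested (4.27% higher and 3.1% lower), so the pathway as a list stood near the background. Its median log2 fold change was -0.07, against 0.00 for all genes tested. With the replicate number as a block, Pfkp and Tkt also fell, which made 5 of 32 (15.6%) against 21.4% of all genes (10.8% higher and 10.6% lower). Without library Media 3 or Media 4, or without all libraries of number 1, 3 or 4, only the H6pd call was kept among these genes.

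LPS moved more of the pathway, in both directions. Pfkfb3 rose 7.77-fold, Hk2 (hexokinase 2, the inducible form) rose 2.49-fold and Hk3 rose 1.36-fold. Gpi1, Pfkfb4, Slc16a3, H6pd and Pdk1 fell, to between 0.571 and 0.767 of their Media means. In all 8 of 32 genes passed the test (25%), against 25.8% of all genes tested (13.2% higher and 12.6% lower), near the background on the deposited scale but above it under the other scalings given below. The median log2 fold change was -0.12, against -0.02 for all genes tested. With the block 5 were higher and 10 lower (46.9%), against 43.7% of all genes (21.5% higher and 22.2% lower), and the 8 genes called without it were among them. Libraries were left out only in the fit without the block. There the count was 5 without library LPS 4 or without Media 4, 4 without all libraries of number 3 and 3 without number 4. Both treatments were compared with the same 4 Media libraries.

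**Figure D1:**
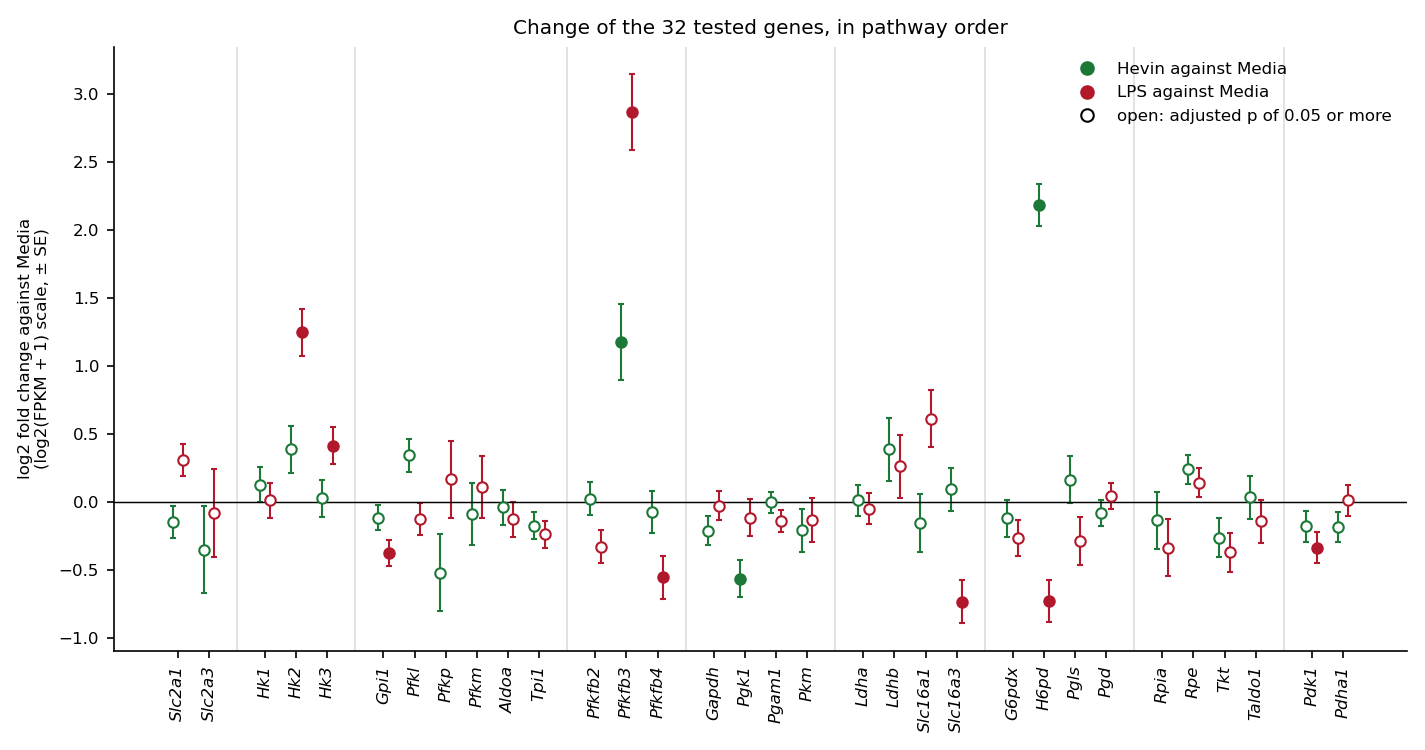
Log2 fold change against Media (y axis, log2(FPKM + 1) scale, ± SE from limma) of the 32 tested genes in pathway order (x axis), green for Hevin and red for LPS, filled where the adjusted p is under 0.05. H6pd stands at 2.19 in Hevin and -0.72 in LPS, Pfkfb3 at 1.18 and 2.86, and most other genes lie close to 0.

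Groups that do not overlap give a count without a model. For Hevin, 3 genes (H6pd, Pfkfb3 and Pfkl) had all 4 libraries above all Media libraries and Pgk1 had all 4 below, against 16.6% of all genes tested with no overlap (9.05% above and 7.55% below). For LPS, 3 genes (Pfkfb3, Hk2 and Slc2a1) were entirely above and 5 (Gpi1, Pfkfb4, Slc16a3, H6pd and Pdk1) entirely below, against 25.6% of all genes (13.3% above and 12.3% below).

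Among the glucose carriers, Slc2a1 stood at 145, 139, 169 and 179 FPKM in Media libraries 1 to 4 and at 135, 119, 149 and 170 FPKM in Hevin. In LPS it stood at 217, 182, 192 and 190 FPKM, so that every LPS library lay above every Media library. The log2 fold change for LPS was 0.31 ± 0.12 (SE) and missed the threshold (limma adjusted p = 0.0772), but passed with the block (limma adjusted p = 0.0146). Its direction depends on the scaling: it became -0.07 when every library was given the same FPKM sum and -0.12 with quantile normalization. Slc2a1 is also a gene of brain endothelial cells, and in Media and Hevin its 2 highest libraries were numbers 3 and 4, where the endothelial list was highest. In LPS its highest library was number 1, where that list was lowest (28.2 to 30.7 FPKM over the 3 groups). Slc2a3 (GLUT3) was low, at 1.79 to 7.01 FPKM over all libraries, and its highest library in each group was number 2, the number with neutrophil and monocyte transcripts. Neither treatment changed Slc2a3 by the test (limma adjusted p = 0.629 for Hevin and 0.896 for LPS).

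Hexokinases trap glucose as glucose 6-phosphate. Hk2 stood at 13.4, 13, 9.13 and 8.21 FPKM in Media and at 33.0, 22.2, 22.8 and 30.9 FPKM in LPS. The lowest LPS library was well above the highest Media library (log2 fold change 1.25 ± 0.17, limma adjusted p = 0.000284). In Hevin it stood at 16.2, 15.0, 12.6 and 13.8 FPKM, higher than Media in 4 of 4 pairs but overlapping with it (0.39 ± 0.17, limma adjusted p = 0.223, or 0.0583 with the block). Hk3, the myeloid hexokinase and the highest of the family here, ranged from 82.5 to 104 FPKM in Media and from 99.5 to 167 FPKM in LPS (0.42 ± 0.13, limma adjusted p = 0.0393). That call is fragile: it was lost without any 1 of 9 libraries (LPS 1, 2 and 4, Media 2, 3 and 4, and Hevin 1, 3 and 4, adjusted p 0.0514 to 0.103), and the fold change was 0.04 with the same FPKM sum and -0.0034 with quantile normalization. Leaving out all libraries of any 1 number lost it too (limma adjusted p 0.0559 to 0.171). Hk1, the housekeeping form, stood at 21.0 ± 1.24 FPKM in Media, 23.3 ± 3.48 FPKM in Hevin and 21.5 ± 3.81 FPKM in LPS and passed no test.

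In upper glycolysis, Gpi1, which turns glucose 6-phosphate into fructose 6-phosphate, ranged from 28.9 to 34.7 FPKM in Media and from 22.4 to 28.6 FPKM in LPS, with no overlap (-0.37 ± 0.09 in log2, limma adjusted p = 0.0124). That call was lost without all libraries of number 3 (limma adjusted p = 0.0781) or number 4 (0.114). Hevin left Gpi1 at 29.3 ± 1.41 FPKM. Of the phosphofructokinases, which commit sugar to glycolysis, Pfkp is the platelet form and was the highest. It stood at 17.2, 20.0, 34.5 and 28.7 FPKM in Media, at 11.4, 13.1, 23.9 and 21.1 FPKM in Hevin, and at 21.8, 20.4, 33.4 and 37.1 FPKM in LPS. Numbers 3 and 4 were above numbers 1 and 2 in every group, as was the sum of the endothelial list. Within numbers, Hevin was lower than Media in 4 of 4 pairs. The Hevin log2 fold change of -0.52 therefore had limma adjusted p = 0.341 without the block and 0.00124 with it. Pfkl, the liver form, stood at 5.31 to 6.53 FPKM in Media and at 6.69 to 8.89 FPKM in Hevin, with no overlap, but did not pass (0.34 ± 0.12, limma adjusted p = 0.115, or 0.0538 with the block). Pfkm, the muscle form, was at 0.304 to 1.45 FPKM in all libraries. Aldoa stayed at 320 to 347 FPKM in all 3 group means. Tpi1, triose phosphate isomerase, was at 40.6 ± 3.54 FPKM in Media and 34.4 ± 4.29 FPKM in LPS (-0.24 ± 0.10, limma adjusted p = 0.107, or 0.0118 with the block).

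The PFKFB enzymes make and break fructose 2,6-bisphosphate, and Pfkfb3 is the form with the highest kinase activity relative to its phosphatase activity. Pfkfb3 stood at 24.9, 22.5, 13.1 and 15.5 FPKM in Media, at 54.6, 51.0, 35.1 and 34.7 FPKM in Hevin and at 148, 82.0, 153 and 207 FPKM in LPS. The 3 groups formed separate steps: every Hevin library was above every Media library, and every LPS library above every Hevin library. The log2 fold change was 1.18 ± 0.28 for Hevin (limma adjusted p = 0.0229) and 2.86 ± 0.28 for LPS (limma adjusted p = 1.73e-05). The Hevin call was lost without Hevin 1, Hevin 2, Media 3 or Media 4 (adjusted p 0.065 to 0.0754), although Pfkfb3 was higher in 4 of 4 pairs, and with the block limma adjusted p = 0.00876. Leaving out all libraries of number 1, 3 or 4 also lost that call (limma adjusted p 0.0765 to 0.126). Pfkfb4, another bifunctional form, stood at 11.7, 10.4, 9.99 and 12.3 FPKM in Media, at 12, 7.50, 10.7 and 12.4 FPKM in Hevin and at 9.40, 6.18, 6.66 and 6.95 FPKM in LPS. All LPS libraries were below all Media libraries (-0.55 ± 0.16, limma adjusted p = 0.0210), and the call was lost without Media 1, Media 4, LPS 2, LPS 3 or LPS 4 (adjusted p 0.0514 to 0.0620). It was also lost without all libraries of number 3 (limma adjusted p = 0.0931) or number 4 (0.134). Pfkfb2 was at 3.07 ± 0.422 FPKM in Media and 2.24 ± 0.346 FPKM in LPS (limma adjusted p = 0.0656, or 0.00688 with the block, 0.0407 without LPS 1 and 0.0472 without Media 3).

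**Figure D2:**
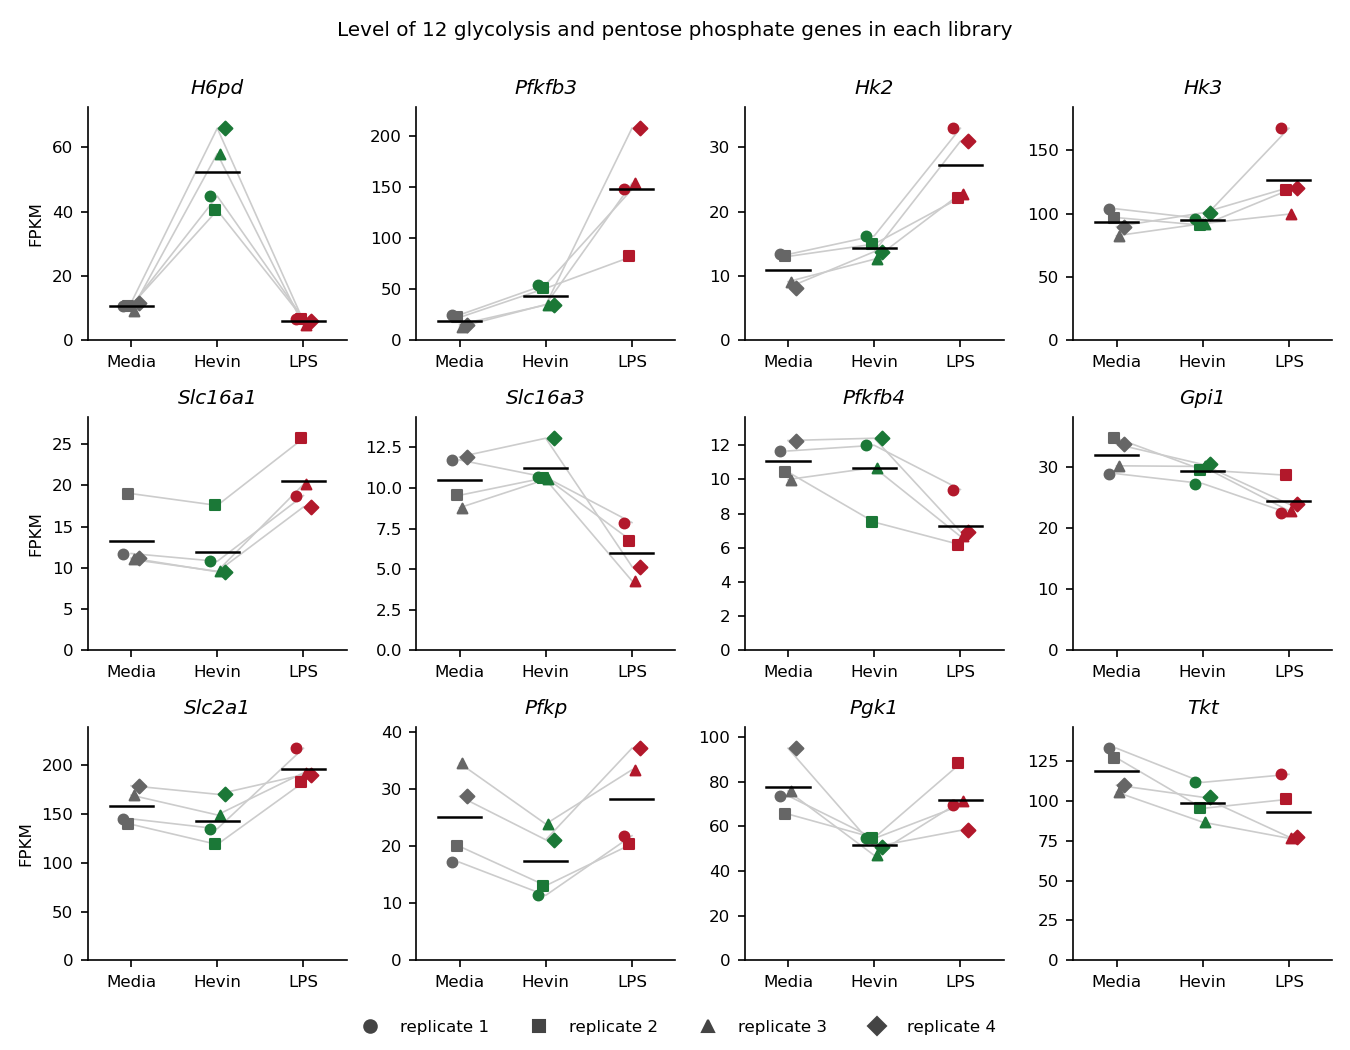
FPKM (y axis, linear, from 0) of 12 pathway genes in each library of Media, Hevin and LPS, with symbols for replicates 1 to 4, grey lines joining libraries of the same number and black bars for group means. H6pd is at 40.5 to 66.0 FPKM in Hevin and under 12 FPKM elsewhere, and Pfkfb3 climbs from Media through Hevin to LPS.

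In lower glycolysis, Pgk1, whose product makes ATP in this stretch of the pathway, stood at 73.7, 65.5, 75.9 and 95.0 FPKM in Media and at 54.6, 54.9, 47.0 and 50.9 FPKM in Hevin. All 4 Hevin libraries were below all Media libraries (log2 fold change -0.56 ± 0.13, limma adjusted p = 0.0241). The call was lost without Hevin 3, Hevin 4, Media 3 or Media 4 (adjusted p 0.0611 to 0.0725). It was also lost without all libraries of number 1, 3 or 4 (limma adjusted p 0.0899 to 0.188), and 3 pseudogenes share stretches with Pgk1. In LPS it stood at 69.4, 88.2, 71.2 and 58.2 FPKM, within the Media range but for 1 library (-0.11 ± 0.13, limma adjusted p = 0.593). Gapdh, which makes NADH, was lower in Hevin than in Media in 4 of 4 pairs, but its groups overlapped (46.3 ± 5.74 against 53.7 ± 6.41 FPKM, limma adjusted p = 0.300, or 0.0881 with the block). Pkm was likewise lower in 4 of 4 pairs, at 383 ± 44.9 FPKM in Hevin, without passing (limma adjusted p = 0.537). Pgam1, phosphoglycerate mutase, had means of 44.3 FPKM in both Media and Hevin and 40.1 FPKM in LPS.

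The enolase step is represented only through Eno1b, a gene much like Eno1 that was chosen after its values were seen. It stood at 43.3 ± 1.64 FPKM in Media, 57.9 ± 6.23 FPKM in Hevin and 28.6 ± 3.26 FPKM in LPS. It rose in Hevin (by 0.41 ± 0.10 in log2, limma adjusted p = 0.0241) and fell in LPS (-0.59 ± 0.10, limma adjusted p = 0.00102), with no overlap between any of the groups. Since 74.7% of its 100-base stretches also occur in other genes, Eno1 among them, its reads cannot be assigned to it with certainty.

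Among the lactate genes, Ldha, which turns pyruvate into lactate, held group means of 27.1 to 28.1 FPKM and passed no test. Ldhb, the form that favours the reverse reaction, was at 3.72 ± 1.48 FPKM in Media, 4.98 ± 0.516 FPKM in Hevin and 4.67 ± 1.72 FPKM in LPS, also without passing. The monocarboxylate carriers moved apart in LPS. Slc16a3 (MCT4, the lactate exporter of glycolytic cells) stood at 11.7, 9.55, 8.79 and 11.9 FPKM in Media, at 10.7, 10.6, 10.5 and 13.1 FPKM in Hevin and at 7.87, 6.73, 4.28 and 5.17 FPKM in LPS. Every LPS library was below every other library (log2 fold change against Media -0.73 ± 0.16, limma adjusted p = 0.00547). The call was lost without all libraries of number 4 (limma adjusted p = 0.0684). Slc16a1 (MCT1, which carries lactate either way) stood at 11.7, 19.0, 11 and 11.2 FPKM in Media, at 10.8, 17.6, 9.59 and 9.53 FPKM in Hevin and at 18.8, 25.7, 20.1 and 17.4 FPKM in LPS. Number 2 was the highest in each group, and Media 2 lay above the 2 lowest LPS libraries. LPS was higher in 4 of 4 pairs (0.61 ± 0.21, limma adjusted p = 0.0506, or 0.000133 with the block). Without Media 2 the log2 fold change was 0.79 and passed (limma adjusted p = 0.0139), without Hevin 2 it passed as well (limma adjusted p = 0.0226), and with the same FPKM sum it was 0.26 (limma adjusted p = 0.307).

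The oxidative pentose phosphate branch held the largest Hevin response of the pathway. H6pd stood at 10.6, 10.8, 9.07 and 11.7 FPKM in Media, at 44.9, 40.5, 58.1 and 66.0 FPKM in Hevin and at 6.68, 6.69, 4.70 and 6.02 FPKM in LPS. The Hevin libraries were all above and the LPS libraries all below the Media libraries. The log2 fold change was 2.19 ± 0.15 in Hevin (limma adjusted p = 5.13e-06) and -0.72 ± 0.15 in LPS (limma adjusted p = 0.00506), and both calls were kept in all 28 alternatives run. G6pdx, which encodes the cytosolic glucose 6-phosphate dehydrogenase, was at 85.7 ± 8 FPKM in Media and 79.0 ± 10.2 FPKM in Hevin, without passing (limma adjusted p = 0.709). In LPS it was at 71.9 ± 12.8 FPKM (-0.26 ± 0.13, limma adjusted p = 0.176, or 0.0178 with the block). Pgls, 6-phosphogluconolactonase, was at 5.24 to 10.6 FPKM over all libraries, and Pgd had group means of 719 to 786 FPKM; neither passed against Media.

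In the non-oxidative branch no gene passed without the block. Tkt stood at 133, 127, 105 and 110 FPKM in Media, at 111, 95.2, 86.6 and 102 FPKM in Hevin and at 116, 101, 76.5 and 77.3 FPKM in LPS. Numbers 1 and 2 were above numbers 3 and 4 in Media and LPS, and each treatment was below Media in 4 of 4 pairs while overlapping with it. The log2 fold change was -0.26 for Hevin (limma adjusted p = 0.339, or 0.0403 with the block) and -0.37 for LPS (limma adjusted p = 0.0765, or 0.00364 with the block and 0.0189 without LPS 1). Rpia, ribose 5-phosphate isomerase, was at 8.04 ± 2.77 FPKM in Media and 5.99 ± 0.996 FPKM in LPS (limma adjusted p = 0.271, or 0.0280 with the block). Rpe, the epimerase, had group means of 9.18 to 11.1 FPKM and Taldo1 of 229 to 255 FPKM, without passing.

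At the mitochondrial gate, Pdk1, a kinase that shuts off pyruvate dehydrogenase, was at 1.58 ± 0.204 FPKM in Media, 1.28 ± 0.241 FPKM in Hevin and 1.04 ± 0.139 FPKM in LPS. It fell in LPS just inside the threshold (log2 fold change -0.33 ± 0.11, limma adjusted p = 0.0499, with 96 to 243 reads per library). That call was lost without any 1 of 10 libraries (all but Hevin 1 and LPS 2, adjusted p 0.0529 to 0.115). Leaving out all libraries of any 1 number also lost it (limma adjusted p 0.0825 to 0.254). Pdha1, a subunit of pyruvate dehydrogenase itself, had group means of 14.6 to 16.8 FPKM and passed no test.

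Within families of isoenzymes, shares of the summed FPKM do not move when a library is multiplied by 1 factor, though they can with quantile normalization, and they are given without a test. H6pd made up 11 ± 0.541% of the glucose 6-phosphate dehydrogenase sum in Media, 39.7 ± 7.80% in Hevin and 7.76 ± 0.443% in LPS, with no overlap between groups. With quantile normalization the LPS minus Media difference of that share was -0.923 in place of -3.21 percentage points. In Hevin libraries 3 and 4 its share reached 46.0% and 47.0%. Pfkfb3 made up 56.5 ± 6.62% of the PFKFB sum in Media, 75.5 ± 5.85% in Hevin and 93.4 ± 2.23% in LPS, again with no overlap. The share of Pfkfb4 went the other way, from 34.2 ± 6.04% to 19.0 ± 5.58% and 5.01 ± 1.65%, while its level was 11.1 ± 1.06 FPKM in Media and 10.6 ± 2.22 FPKM in Hevin.

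Hk2 made up 8.66 ± 1.45% of hexokinase FPKM in Media, 10.9 ± 1.37% in Hevin and 15.6 ± 1.87% in LPS, where every library was above the rest (LPS minus Media 6.97 percentage points, or 9.12 with quantile normalization). Hk3 nevertheless held 69.9 to 75.9% of that sum in every library. Pfkp made up 77.5 ± 5.77% of the phosphofructokinase sum in Media, 65.7 ± 5.44% in Hevin and 80.3 ± 5.53% in LPS. Its share in every Hevin library was below that in every other library, including 70.8% in Hevin 3 against 71.5% in Media 1. Slc16a1 made up 55.2 ± 8.19% of the monocarboxylate carrier sum in Media, 50.6 ± 8.49% in Hevin and 77.3 ± 5.08% in LPS, where all libraries stood above the rest. The shares of Ldha, Slc2a1 and Aldoa in their families overlapped in all comparisons, and Aldoa held at least 99.6% of aldolase FPKM in every library.

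**Figure D3:**
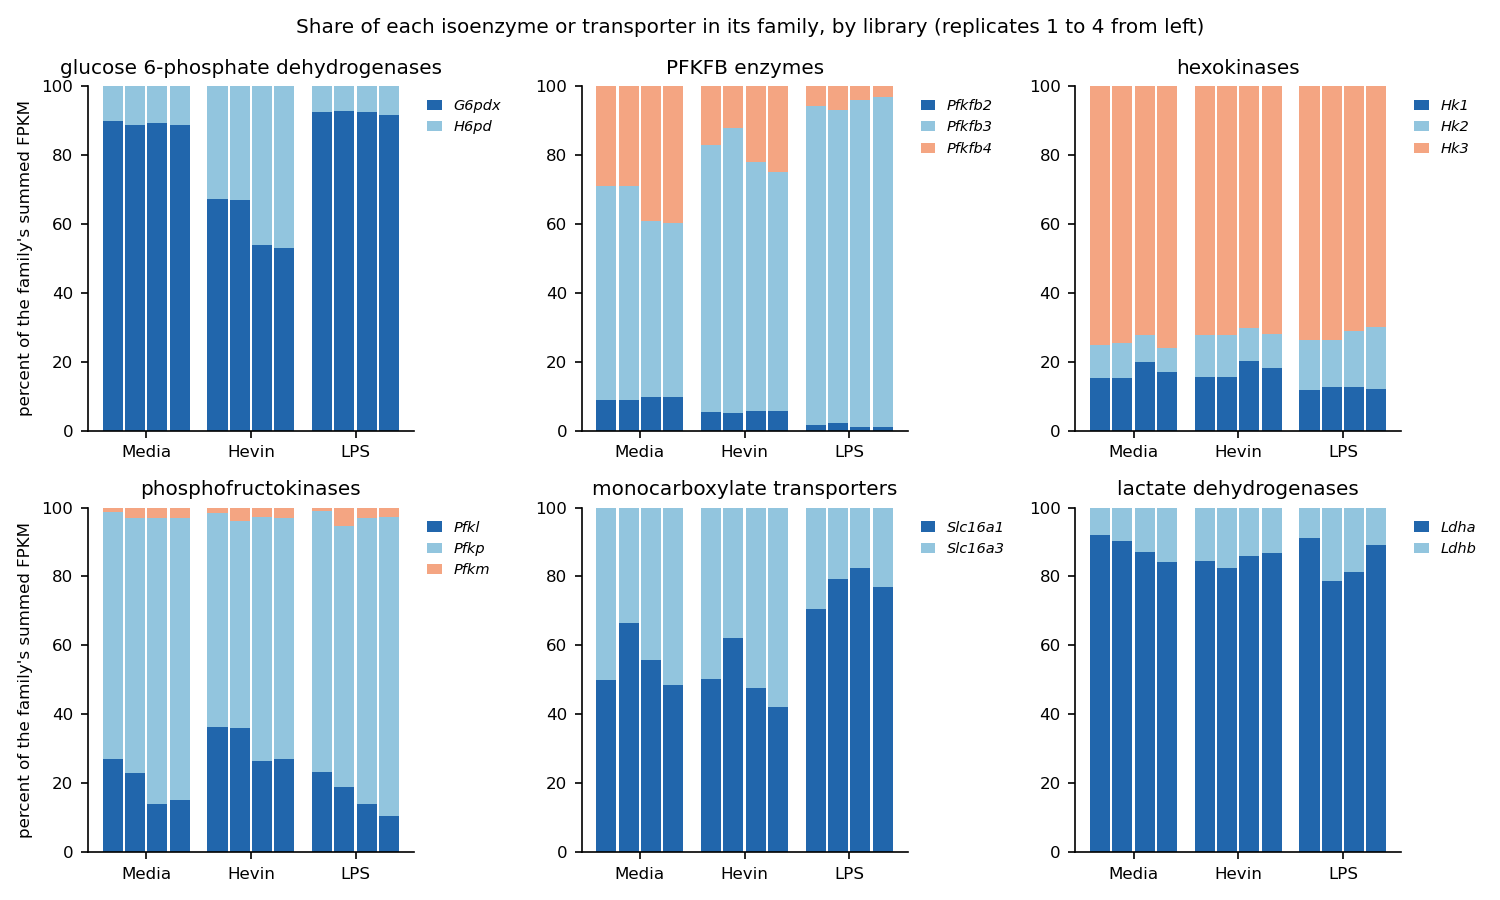
Stacked bars of each isoenzyme's or carrier's percent of its family's summed FPKM (y axis, from 0 to 100) in every library, 4 bars a group for replicates 1 to 4. H6pd rises from 11% in Media to 39.7% in Hevin and Pfkfb3 from 56.5% in Media to 93.4% in LPS, while the lactate dehydrogenase shares overlap.

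Set directly against LPS, Hevin gave higher levels of Gpi1, Pfkl, Pfkfb2, Pfkfb4, Slc16a3 and H6pd and lower levels of Slc2a1, Hk2, Hk3, Pfkfb3, Pgk1 and Slc16a1. These 12 of 32 genes (37.5%) compare with 41.7% of all genes tested (22% higher and 19.7% lower), and the median log2 fold change was 0.09 against 0.02. H6pd was 8.69-fold higher in Hevin (2.91 ± 0.15 in log2, limma adjusted p = 6.72e-08), and Slc16a3 was 1.87-fold higher (0.83 ± 0.16, limma adjusted p = 0.00151). Pfkfb3 was 3.37-fold lower in Hevin (-1.68 ± 0.28, limma adjusted p = 0.000531), and Hk2 1.89-fold lower (-0.86 ± 0.17, limma adjusted p = 0.00196). In 3 genes every Hevin library was above every LPS library (H6pd, Slc16a3 and Pfkfb2) and in 4 every one was below (Slc2a1, Hk2, Pfkfb3 and Pgk1), against 37.5% of all genes with no overlap (20% above and 17.5% below). Pfkp was lower in Hevin in 4 of 4 pairs (-0.68, limma adjusted p = 0.0705, or 4.2e-05 with the block, 0.0498 without LPS 2 and 0.0392 without Hevin 3). Pgls missed the threshold (0.45, limma adjusted p = 0.0564) but passed with the block (0.0313) and without Hevin 2, LPS 2 or Media 2 (0.0109 to 0.0431). The block made 7 higher and 7 lower, against 57.9% of all genes (29.9% higher and 28% lower). Some calls rested on single libraries, with adjusted p of 0.0501 to 0.103 without them. Gpi1 was lost without Hevin 2, 3 or 4, LPS 1, 3 or 4, or Media 3 or 4, and Hk3 without any Hevin library or LPS 1, 2 or 4. Pfkfb2 was lost without Hevin 1 or 2 or LPS 2, 3 or 4, Pfkfb4 without Hevin 1, 3 or 4 or LPS 2, 3 or 4, and Pgk1 without Hevin 3. Leaving out a whole number also lost Pfkl (number 3 or 4), Slc16a1 (1, 3 or 4) and Slc2a1 (1), with limma adjusted p of 0.0553 to 0.0756. Gpi1, Hk3, Pfkfb2, Pfkfb4 and Pgk1 were lost without some whole numbers as well, with limma adjusted p of up to 0.215. Calls also rested on the scaling. With the same FPKM sum in every library Slc2a1 (-0.029 in log2, limma adjusted p = 0.865), Pgk1 (-0.0256, 0.885) and Slc16a1 (-0.36, 0.145) were no longer called, and Hk3 changed sign (0.0386, 0.815). With quantile normalization Pgk1 (-0.13, limma adjusted p = 0.476) and Pfkfb2 (0.22, 0.265) were not called, and Slc2a1 (0.0914, 0.630) and Hk3 (0.0709, 0.648) changed sign.

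The scaling of the libraries bears on every LPS count. Summed over all genes, the deposited FPKM came to 324698 ± 5325 for Media but 422173 ± 6273 for LPS, and giving each library the same sum moved the median of all genes by -0.34 in log2 for LPS against Media. Under that scaling 2 pathway genes were higher and 22 lower in LPS (75% of the 32, against 55.7% of all genes tested), and over all genes 10.7% of calls were higher, against 51.2% as deposited. With the same upper quartile 3 were higher and 10 lower (40.6%, against 29.6% of all genes). With quantile normalization 2 were higher and 13 lower (46.9%, against 25% of all genes, and 40.6% lower against 15.1%). That scaling moved the median of all genes by 0.02 in log2, but Tkt from -0.37 to -0.73 and H6pd from -0.72 to -0.66. All genes tested are not matched to the pathway in level, and the part of level in these shares was not tested. Pfkfb3 and Hk2 rose and Gpi1, Pfkfb4, Slc16a3 and H6pd fell under all 4 scalings. For Hevin against Media the pathway had 2 higher and 1 lower under each. Against LPS, Hevin had 19 higher and 2 lower with the same sum (65.6%, against 60.7% of all genes). It had 13 higher and 3 lower with quantile normalization, in place of 6 and 6 (50%, against 37.5% of all genes, and 40.6% higher against 22%).

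**Figure D4:**
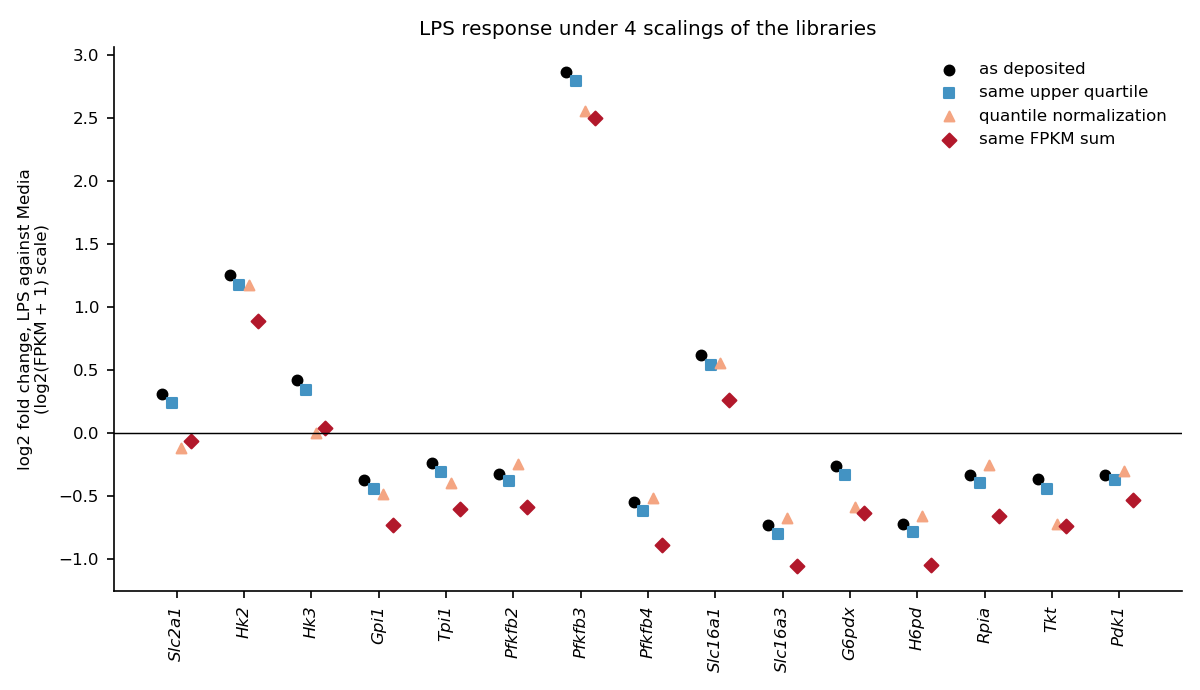
Log2 fold change of LPS against Media (y axis, log2(FPKM + 1) scale) of 15 pathway genes under 4 scalings of the libraries, as deposited (black), same upper quartile (blue), quantile normalization (orange) and same FPKM sum (red). Slc2a1 changes sign and Hk3 comes close to 0 or below it, while Pfkfb3 stays above 2.4 and Slc16a3, H6pd and Pfkfb4 stay below 0.

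The neighbouring pathways were followed through 9 lists with 118 genes tested. For Hevin, 6 of these genes rose (5.08%, against 4.27% of all genes) and 3 fell (2.54%, against 3.1%), and with the block 37 passed (31.4%, against 21.4%). In the list of HIF factors and hypoxia targets 4 of 20 genes rose (20%, against 4.27% of all genes) and 0 fell by the test. Log2 fold changes ranged from -1.07 to 1.08 (median 0.19), with 14 above 0 and 6 below. With the block 6 rose and 3 fell (45%, against 21.4% of all genes, 10.8% higher and 10.6% lower). Vegfa, the angiogenic growth factor, rose from 21.9 ± 3.13 to 47.2 ± 6.02 FPKM, Mxi1, a MYC antagonist, from 20.3 ± 2.22 to 39.3 ± 6.32 FPKM, and Bnip3l, a mitophagy receptor, from 14.8 ± 0.914 to 26.5 ± 4.75 FPKM. Vhl, which targets HIF factors for breakdown, rose from 18.5 ± 2.24 to 29.7 ± 3.53 FPKM. For these 4 genes limma adjusted p was at most 0.00386.

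LPS raised 3 and lowered 3 of those 20 genes (15% each, against 13.2% and 12.6% of all genes). Hif1a, which encodes HIF-1α, rose from 74.7 ± 6.45 to 174 ± 27.5 FPKM (limma adjusted p = 0.000154). Adm, adrenomedullin, rose from 11.6 ± 3.90 to 30.0 ± 7.23 FPKM and Ddit4, an mTOR inhibitor, from 14.9 ± 4.89 to 44.0 ± 12.6 FPKM. Mxi1 fell to 8.02 ± 1.65 FPKM, opposite to its rise in Hevin. Vegfa, given here for LPS after its values were seen, fell too, to 12.5 ± 2.47 FPKM (-0.76 in log2, limma adjusted p = 0.00245).

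Of 20 other glycolysis and hexose transport genes 0 passed for Hevin, against 7.37% of all genes. With the block 4 passed (20%, against 21.4% of all genes). LPS raised 1 (5%, against 13.2% of all genes) and lowered 3 (15%, against 12.6%). Slc2a6, a sugar carrier of the lysosome, rose in LPS from 1.68 ± 0.676 to 20.3 ± 6.08 FPKM (2.99 ± 0.25 in log2, limma adjusted p = 5.8e-06), beside 2.86 for Pfkfb3. Gpd1l fell from 6.50 ± 1.22 to 3.38 ± 0.756 FPKM, Slc16a7 (MCT2) from 1.26 ± 0.149 to 0.531 ± 0.276 FPKM and Tigar, a fructose 2,6-bisphosphatase, from 2.76 ± 0.421 to 1.80 ± 0.140 FPKM. Of 7 other pentose phosphate and ribose genes 0 passed for Hevin, and 14.3% with the block (against 21.4% of all genes). In LPS 1 fell (14.3%, against 12.6% of all genes): Dera, from 6.67 ± 0.375 to 4.55 ± 0.845 FPKM.

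The endoplasmic reticulum genes that supply or use glucose 6-phosphate, the substrate of the H6pd product, did not pass in Hevin (0 of 4). The same held with the block. Of all genes 7.37% passed, or 21.4% with the block, so that 0 of 4 says little. Log2 fold changes of the 4 ranged from -0.31 to 0.38 (median 0.28), with 3 above 0 and 1 below. In 1 of them all Hevin libraries were below all Media libraries, against 7.55% of all genes. In LPS 2 of the 4 fell (50%, against 12.6% of all genes). Slc37a2, a sugar phosphate carrier of that membrane, fell from 37.7 ± 8.66 to 12.4 ± 4.57 FPKM (limma adjusted p = 0.000359), and G6pc3, a glucose 6-phosphatase, from 5.12 ± 0.582 to 3.77 ± 0.278 FPKM. Other NADPH sources and NRF2 targets were split. In Hevin 1 of the 11 tested rose and 1 fell (9.09% each, against 4.27% and 3.1% of all genes). With the block 2 rose and 5 fell (63.6%, against 21.4% of all genes). In Hevin, Idh1, which makes NADPH in the cytosol, rose from 22.2 ± 1.37 to 31.9 ± 2.36 FPKM and Srxn1, sulfiredoxin, fell from 1471 ± 64.1 to 1157 ± 34.2 FPKM. In LPS 3 of the 11 rose and 3 fell (27.3% each, against 13.2% and 12.6% of all genes). Slc7a11, a cystine carrier, rose from 224 ± 32.1 to 607 ± 44.8 FPKM, Txnrd1, thioredoxin reductase, from 722 ± 51.7 to 1157 ± 102 FPKM and Gsr, glutathione reductase, from 169 ± 29.0 to 253 ± 24.5 FPKM. Nqo1, a quinone reductase, fell from 121 ± 7.44 to 65.9 ± 6.87 FPKM.

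At pyruvate entry, 1 of 13 other genes rose and 1 fell in Hevin (7.69% each, against 4.27% and 3.1% of all genes). With the block 46.2% passed (against 21.4%). In LPS 1 rose (7.69%, against 13.2%) and 2 fell (15.4%, against 12.6%). Dld, a subunit shared by several dehydrogenases, rose in LPS from 48.0 ± 1.93 to 73.6 ± 5.60 FPKM. Pdpr, a regulator of pyruvate dehydrogenase phosphatase, rose in Hevin from 3.11 ± 0.506 to 4.84 ± 0.398 FPKM and fell in LPS to 1.78 ± 0.343 FPKM. Pdp1, a catalytic subunit of that phosphatase, fell under both treatments, from 5.1 ± 0.288 to 3.81 ± 0.501 FPKM in Hevin and to 3.91 ± 0.210 FPKM in LPS. Of 17 tricarboxylic acid cycle enzymes 0 passed for Hevin (against 7.37% of all genes), or 11.8% with the block (against 21.4%). In LPS 2 fell (11.8%, against 12.6% of all genes): Idh3g from 25.5 ± 0.864 to 19.7 ± 2.34 FPKM and Idh2 from 12.9 ± 1.63 to 8.83 ± 1.77 FPKM.

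Of 13 glycogen genes 0 passed for Hevin (against 7.37% of all genes), or 15.4% with the block (against 21.4%). In LPS 4 fell (30.8%, against 12.6% of all genes). Among them were Pygb, a phosphorylase (12.2 ± 1.66 to 8.63 ± 1.47 FPKM), Gys1, a synthase (10.7 ± 1.27 to 7.84 ± 0.601 FPKM), and Phkb, a phosphorylase kinase subunit (2.68 ± 0.562 to 1.77 ± 0.192 FPKM). Among 13 regulators of glycolysis, 1 fell in Hevin (7.69%, against 3.1% of all genes): Prkab1, an AMPK subunit, from 33.1 ± 2.33 to 24.8 ± 1.99 FPKM. With the block 1 rose and 5 fell (46.2%, against 21.4% of all genes). LPS raised 1 of the 13 (7.69%, against 13.2%) and lowered 3 (23.1%, against 12.6%). In LPS Arrdc4, an arrestin-domain protein, rose from 37.4 ± 2.27 to 51.8 ± 6.66 FPKM, while its relative Txnip fell from 148 ± 4.58 to 116 ± 21.2 FPKM, Akt1 from 67.5 ± 3.40 to 49.0 ± 6.90 FPKM and Prkag1 from 29.2 ± 1.49 to 24.0 ± 1.38 FPKM. Over the 9 lists LPS raised 9 of the 118 genes (7.63%, against 13.2% of all genes) and lowered 23 (19.5%, against 12.6%), and 49 passed with the block (41.5%, against 43.7%).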

How the data were processed

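Expression was measured by RNA-seq in 12 libraries, 4 each of Media, Hevin and LPS, grouped and numbered by their titles. The authors deposited FPKM values in 1 table by gene symbol. Per the submitters' processing notes, mm10 was the build and the tools were edgeR 3.30.3 in R 4.0.0, Subread 1.6.3 with featureCounts, Bowtie2 2.3.5.1, Trimmomatic 0.39 and FastQC 0.11.7. How strand was used, the annotation, the scaling and the filter on rows: not given in the sources used here. Libraries were made with a stranded kit per the labels' protocols. Whole reads were recovered from the FPKM steps in 100% of 14541 rows (within 0.1 of a read) and in 100% of 2000 simulated rows.

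All comparisons were fitted together with limma 3.58.1 (R 4.3.3) with the trend option, on log2(FPKM + 1) of the 11242 genes that reached 1 FPKM in 4 or more libraries. P-values were adjusted by Benjamini-Hochberg over all of these, with 0.05 as threshold, and this scale understates the change of low genes. Same-numbered libraries correlated in all 12 pairs (0.23 to 0.784). LPS 4 correlated more with Media 3 (0.528) and Hevin 3 (0.52) than with Media 4 (0.23) and Hevin 4 (0.392), and the labels name no shared source. On simulated data (11010 genes, changes placed in higher genes) the test called 62% of 1.5-fold and 100% of 2-fold changes for Hevin and for LPS against Media. Apart from counting noise, those data had independent scatter of equal size for every gene and no deviation shared by number. The shares therefore do not measure how often such changes are found in the real libraries.

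The genes and lists were chosen with earlier results of these data known. Values per library were given for genes called in Hevin with or without the block and for those called in LPS with an absolute log2 fold change of at least 0.5; from each other list, the up to 4 called genes with the smallest p were named, of which some results are left out of the text. Slc2a1 and Slc16a1 were added to these after their values were seen. Alternatives were pseudocounts of 0.1 and 5, other filters, no trend, 3 scalings, only both groups compared, the block, limma-voom on recovered reads, and leaving out each library or number. Gene models were GENCODE M21 on GRCm38, and windows came from RefSeq. Figures were drawn with matplotlib 3.10.9.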

Additional observations from a re-analysis of the deposited data

Results flagged for a closer look

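In 7 of 99 combinations of gene and group, 1 library stood apart from the other 3 by more than a test for outliers allows; chance alone sets apart about 1 in 20 groups. Slc2a3 was at 7.01 FPKM in Media 2, against 2.62 to 3.18 FPKM in the other Media libraries, and at 5.69 FPKM in Hevin 2, against 1.79 to 2.14 FPKM. Slc16a1 was at 19.0 FPKM in Media 2, against 11 to 11.7 FPKM, and at 17.6 FPKM in Hevin 2, against 9.53 to 10.8 FPKM. Pgls was at 8.79 FPKM in LPS 2, against 5.24 to 5.78 FPKM. These 5 values are all in libraries numbered 2, which carry the neutrophil and monocyte transcripts. Slc2a3 and Slc16a1 were highest in number 2 in every group. Pgls was highest there in Media and LPS but lowest there in Hevin, at 7.20 FPKM. Pgam1 was at 49.4 FPKM in Media 4, against 42.2 to 43.0 FPKM, and Slc16a3 at 13.1 FPKM in Hevin 4, against 10.5 to 10.7 FPKM.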

How the results depend on the processing

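For single genes, 778 values kept their direction and side of the threshold, 112 lost the call, 53 gained it and 6 reversed. Those 6 were Slc2a1 in LPS against Media (-0.0677 with the same FPKM sum, -0.12 with quantile normalization), Hk3 in LPS against Media (-0.0034 with quantile normalization), Slc2a1 in Hevin against LPS (0.0914 with quantile normalization) and Hk3 in Hevin against LPS (0.0386 with the same sum, 0.0709 with quantile normalization). The cause was not tested. With the replicate block, pathway genes called numbered 5 for Hevin and 15 for LPS against Media, all genes 2406 and 4914, and the other lists 37 and 49. With limma-voom and the block the pathway counts were 7 and 15 and the counts over all genes 2729 and 4957. With the same FPKM sum, pathway genes called were 24 for LPS against Media and 21 for Hevin against LPS, the other lists 78 and 86, and all genes 6260 for LPS against Media. For LPS against Media the pathway count was 13 with the same upper quartile and 15 with quantile normalization, which also put the LPS minus Media share at -0.923 percentage points for H6pd and 9.12 for Hk2. Leaving out libraries or numbers gave 1 to 3 pathway genes for Hevin, 3 to 8 for LPS and 6 to 13 for Hevin against LPS, and 262 to 935, 1270 to 2820 and 2880 to 4698 over all genes. Genes with few reads, such as Pfkm (19 to 104) and Aldoc (10 to 118), allow little precision.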
